A study of Mus musculus with 6 samples.

Results

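The developmental pluripotency associated (Dppa) genes Dppa1, Dppa2, Dppa3, Dppa4 and Dppa5a were followed in mouse embryonic stem (mES) cells and in epiblast stem cells (EpiSC). They were found by symbol among the non-control probes of the array, with no use of measured values. The array held 6 probes for these 5 genes, of 41174 probes in all, with 2 probes for Dppa5a and 1 for each of the others. Of the 5 genes, 4 were measurable (5 probes of the 29552 that entered the analysis, and 4 genes of the 20689 tested), and Dppa1 was not.

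mES lines derive from the preimplantation blastocyst, from its inner cell mass, whereas EpiSC lines are taken from the epiblast once the embryo has implanted. The mES group held replicate 1 (ESF122), replicate 2 (ESF175/1) and replicate 3, which is called ESF58/2 in its title and ESF58/1 in its source name. The EpiSC group held replicate 1 (EpiSC-5), replicate 2 (EpiSC-7 at passage 20) and replicate 3 (EpiSC-7 at passage 25), so that replicates 2 and 3 share a line. All cultures grew on irradiated mouse embryonic fibroblasts in DMEM with KSR, BME, NEAA and L-glutamine, with LIF for mES and FGF2 for EpiSC. The labels name no genetic change in either group. Each of the 4 slides held arrays of 1 group only, and the slide and the growth factor cannot be told apart from the cell type. Nothing beyond line and passage says that cultures were separate, and the spread behind each p-value may be technical in part.

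The Dppa symbol was given to genes with expression restricted to pluripotent cells and the early germ line, and it joins proteins of unlike structure. Dppa2 and Dppa4 are nuclear SAP-domain proteins that bind each other and chromatin, where they help to switch on genes of the 2-cell embryo and keep some developmental promoters free of DNA methylation. Dppa3, also called Stella or PGC7, is a maternal protein that marks primordial germ cells and shields DNA methylation patterns in the egg, in part by holding Uhrf1 away from chromatin. Dppa5a, also called Esg1, is an RNA-binding protein with a KH domain, a fold shared with the oocyte proteins Ooep and Khdc3.

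All 4 measured genes were lower in EpiSC than in mES cells. Dppa5a was 1180-fold and Dppa2 13.2-fold lower, both from signals above background on all 6 arrays. Dppa3 was at least 158-fold lower by the processed signal, as no EpiSC array had it above background. With another background correction (normexp) its log2 fold change was -5.03, a smaller difference than that bound. Dppa4 was above background on 1 of the 3 EpiSC arrays, with a fitted log2 fold change of -9.44. Each passed an adjusted p of 0.05 in limma, where 14.5% of all genes tested were lower and 26.3% were called in either direction. With the 2 Dppa5a probes fitted separately, 5 of 5 Dppa probes were lower, against 13.9% of all probes. In each of the 4 genes the 3 EpiSC values lay below the 3 mES values, which held for 28.6% of all genes. Dppa3 and Dppa4 entered the analysis through the mES arrays alone, so their part in these counts is not independent of direction. Among probes above background on all 6 arrays, the 2 Dppa genes tested, Dppa2 and Dppa5a, were both lower, against 2917 of 18095 genes. In these bulk cultures, fewer cells that express a gene and less RNA per cell cannot be told apart.

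**Figure D1:**
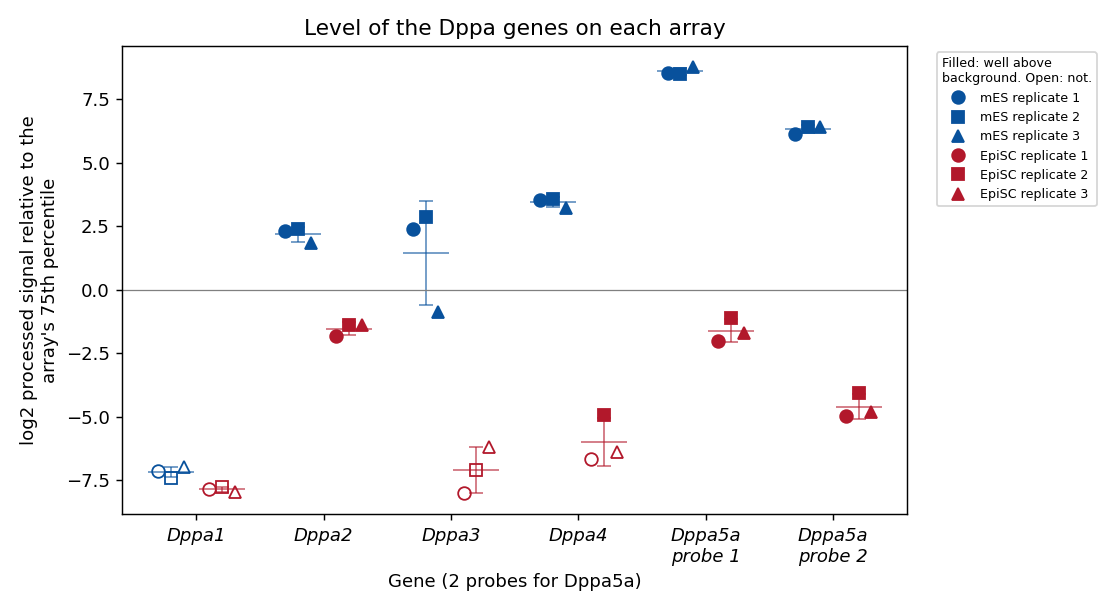
Level of each Dppa probe on each array, as the log2 processed signal relative to the array's 75th percentile; bars give the group mean and SD (n = 3), and open symbols mark probes not well above background. The mES and EpiSC values of Dppa2, Dppa3, Dppa4 and both Dppa5a probes do not overlap, and Dppa3 on mES replicate 3 lies at -0.90, below the other mES arrays at 2.39 and 2.84.

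**Figure D2:**
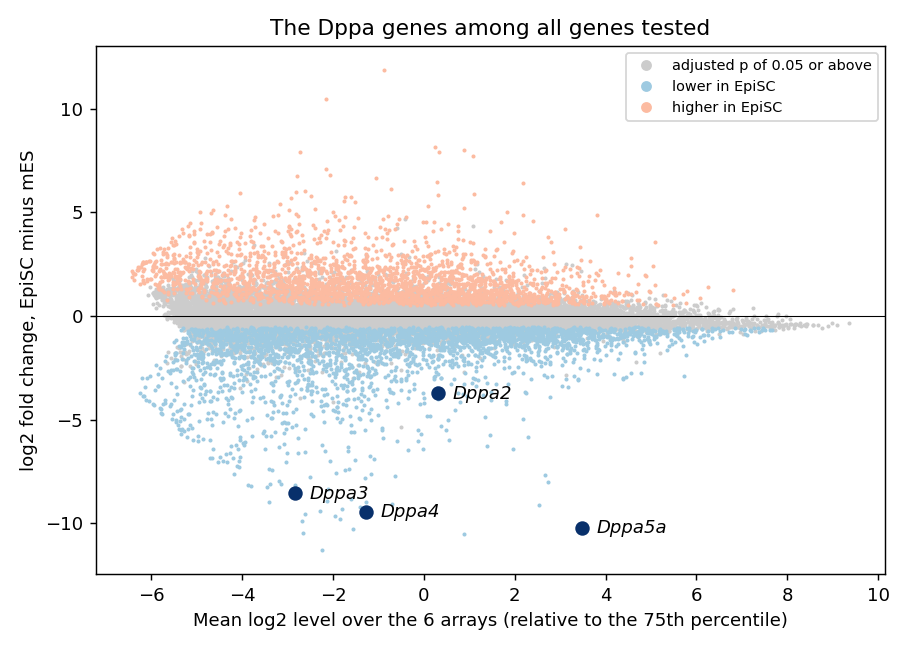
Log2 fold change (EpiSC minus mES) against the mean log2 level over the 6 arrays for 20689 genes, coloured by limma's call at an adjusted p of 0.05. Dppa5a lies at -10.2 and Dppa2 at -3.73; the fitted values of Dppa3 (-8.54) and Dppa4 (-9.44) rest on EpiSC readings at or near background.

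Dppa2 and Dppa4, the SAP-domain pair, both fell, by unequal amounts. Levels here and below are log2 processed signals relative to the 75th percentile of the same array, and levels of different probes are not comparable with each other. The level of Dppa2 was 2.32, 2.39 and 1.84 on mES replicates 1 to 3 and -1.84, -1.39 and -1.40 on EpiSC replicates 1 to 3. The arrays of each group lay close together, and Dppa2 stayed well above background on all 6, so that its transcript remained detectable in every EpiSC culture. In the scanner's linear units its signal was 3055, 3528 and 2148 in mES and 260.4, 251.5 and 298.8 in EpiSC. The mean level was 2.18 ± 0.30 in mES cells and -1.54 ± 0.26 in EpiSC (SD, n = 3 each). The difference was -3.73 ± 0.23 (SE) on the log2 scale, or 13.2-fold (limma, adjusted p = 0.000303). Among the 18070 genes above background on all 6 arrays it ranked 118 by size of decrease.

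The level of Dppa4 was 3.51, 3.58 and 3.22 on the mES arrays and -6.68, -4.93 and -6.39 on the EpiSC arrays. All mES arrays were high, and the only EpiSC array on which Dppa4 was well above background was replicate 2, EpiSC-7 at passage 20. Its signal was 6998, 8078 and 5593 in mES and 9.13, 21.7 and 9.39 in EpiSC. The fitted log2 fold change was -9.44 ± 0.46 (SE, n = 3 per group, limma, adjusted p = 0.000136). Its size is limited by the background on EpiSC replicates 1 and 3. With those arrays set at the lowest signal well above background, the difference was -9.01. With another background correction (normexp) the log2 fold change was -6.87 ± 0.20 (limma, adjusted p = 5.70e-06).

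The distance between the Dppa4 and Dppa2 values on the same array shows how unequal the decreases were, although it is not a ratio of transcripts. It was 1.20, 1.20 and 1.38 on the mES arrays and -4.83, -3.54 and -4.99 on the EpiSC arrays, in log2 units. Its group means were 1.26 ± 0.11 and -4.45 ± 0.80 (SD, n = 3 each), and all 3 EpiSC arrays lay below all 3 mES arrays. The group difference was -5.71, with an exact two-sided permutation p of 0.1, the smallest that 3 arrays against 3 allow. With Dppa4 raised to the lowest signal well above background on the EpiSC arrays, the difference was -5.28, and with normexp it was -3.45.

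Dppa5a fell on both of its probes, and it was measured above background in both groups. The level of the first probe was 8.51, 8.49 and 8.75 on the mES arrays and -2.01, -1.13 and -1.72 on the EpiSC arrays. The second probe read 6.13, 6.40 and 6.40 in mES and -4.97, -4.06 and -4.80 in EpiSC. Both were well above background on all 6 arrays and saturated on none, so that neither group is given as a bound. The signal of the first probe ranged from 223580 to 258467 in mES and from 233 to 301 in EpiSC. For the second probe the signal ranged from 42985 to 56994 in mES and from 28.2 to 39.5 in EpiSC.

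Between the groups, the first Dppa5a probe differed by -10.2 ± 0.26 log2 units (SE, n = 3 each), or 1180-fold (limma, adjusted p = 1.63e-05), and it ranked 2 by size of decrease among those 18070 genes. The second probe, in a fit of every probe by itself, gave -10.92 ± 0.27, or 1944-fold (limma, adjusted p = 1.39e-05). The probes therefore gave the same direction, with a larger change for the dimmer one. On both, EpiSC replicate 2 was the highest EpiSC array, as it was for Dppa4. Pseudogenes named Dppa5b and Dppa5c lie near Dppa5a, and whether a probe also reads them was not tested.

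Dppa3 was the most uneven Dppa gene among the mES lines and had the largest error. Its level was 2.39 and 2.84 on mES replicates 1 and 2 but -0.90 on mES replicate 3. It was -8.0, -7.10 and -6.19 on the EpiSC arrays, all of them not well above background. The signal was 3214, 4829 and 321 on the mES arrays and 3.64, 4.80 and 10.8 on the EpiSC arrays. Replicate 3 was thus 9.81-fold below replicate 1 and 13.4-fold below replicate 2, and still above all EpiSC arrays. The group means were 1.44 ± 2.04 and -7.10 ± 0.91 (SD, n = 3 each). The difference was at least 158-fold (limma, adjusted p = 0.00306). The bound sets the mES mean against the lowest signal well above background on each EpiSC array. That is the lowest signal of any probe, not a limit measured for the probe itself. The bounds of other genes below follow the same rule and likewise hold for the processed signal only. The adjusted p beside a bound is limma's for the fitted change. The fitted log2 fold change was -8.54 ± 1.02 (SE), a difference against readings at background whose exact size is not measured. Without mES replicate 3 the fitted log2 fold change was -9.72, and with normexp it was -5.03 ± 0.83 (limma, adjusted p = 0.00524), which is a smaller difference than the bound gives. A pseudogene named Dppa3-ps is known, and whether the probe also reads it was not tested.

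Dppa1 gave no measurable level. It read -7.13, -7.40 and -7.0 in mES and -7.86, -7.78 and -7.95 in EpiSC, in signals of 2.99 to 4.67 units. No array had it well above background, and it entered no test.

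The spread among the lines differed from gene to gene. Among the 18604 genes well above background on all mES arrays, the median distance between the highest and the lowest mES array was 0.46 log2 units. It was 0.26 for Dppa5a, 0.36 for Dppa4 and 0.55 for Dppa2, below which lay 24.2%, 38.1% and 57.9% of those genes. For Dppa3 it was 3.74, and only 44 of the 18604 genes had a wider range. In EpiSC, over 20101 genes with a median range of 0.48, Dppa2 had a range of 0.45 and Dppa5a of 0.88, above 47.2% and 78.7% of genes. Between the passages of line EpiSC-7, Dppa2 differed by -0.01 (passage 25 minus passage 20), Dppa5a by -0.59 and Dppa4 by -1.46. Dppa4 was not well above background at passage 25. Dppa3 differed by 0.91, with neither passage well above background. These are single arrays, with no replicate check.

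The same measure was taken on each mES array, its level minus the mean of the other mES arrays. For Dppa3 it was 1.42 on replicate 1, 2.10 on replicate 2 and -3.52 on replicate 3, where 8 of the 18604 genes were lower. The other Dppa genes showed little of this: on replicate 3 the value was -0.51 for Dppa2, -0.33 for Dppa4 and 0.25 and 0.14 for the Dppa5a probes. Dnmt3b, a de novo DNA methyltransferase, read 5.41, 4.86 and 2.23 on mES replicates 1 to 3. Its partner Dnmt3l, a cofactor without catalytic activity, read 5.53, 5.09 and 2.98, and Dnmt3a read 3.27, 3.17 and 1.39. All 3 were lowest on replicate 3, but the DNA methylation list as a whole was not: 8 of its 15 genes were below the mean of the other mES arrays there, with a median of -0.10, and Zfp57 (1.1) and Tet2 (0.61) were above it. Over all genes, 12382 of 20689 were below it. Nanog, a pluripotency transcription factor that lies near Dppa3, went the other way, at 2.33, 3.03 and 4.24.

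Marker lists also differed among the mES arrays. The postimplantation epiblast list was set apart on replicate 3, the mouse ES cell and fibroblast lists not on that array alone. By this measure a low value on an array raises those of the others. The median of 8 postimplantation epiblast genes was 1.01, 1.05 and -1.46 on the 3 mES arrays by the same measure. That of the mouse ES cell genes was -1.05, -0.09 and 1.02. Fibroblast genes, which the feeder cells bring, had medians of 0.61, -2.59 and 1.66. Esrrb and the fibroblast gene Col1a2 lacked a value on an mES array and are not in these medians. Replicate 3 therefore carried the most fibroblast signal of the mES arrays, while Dppa2, Dppa4 and Dppa5a differed there by at most 0.51. The part of feeder RNA, or of the line with unclear name, in the low Dppa3 value was not tested.

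**Figure D3:**
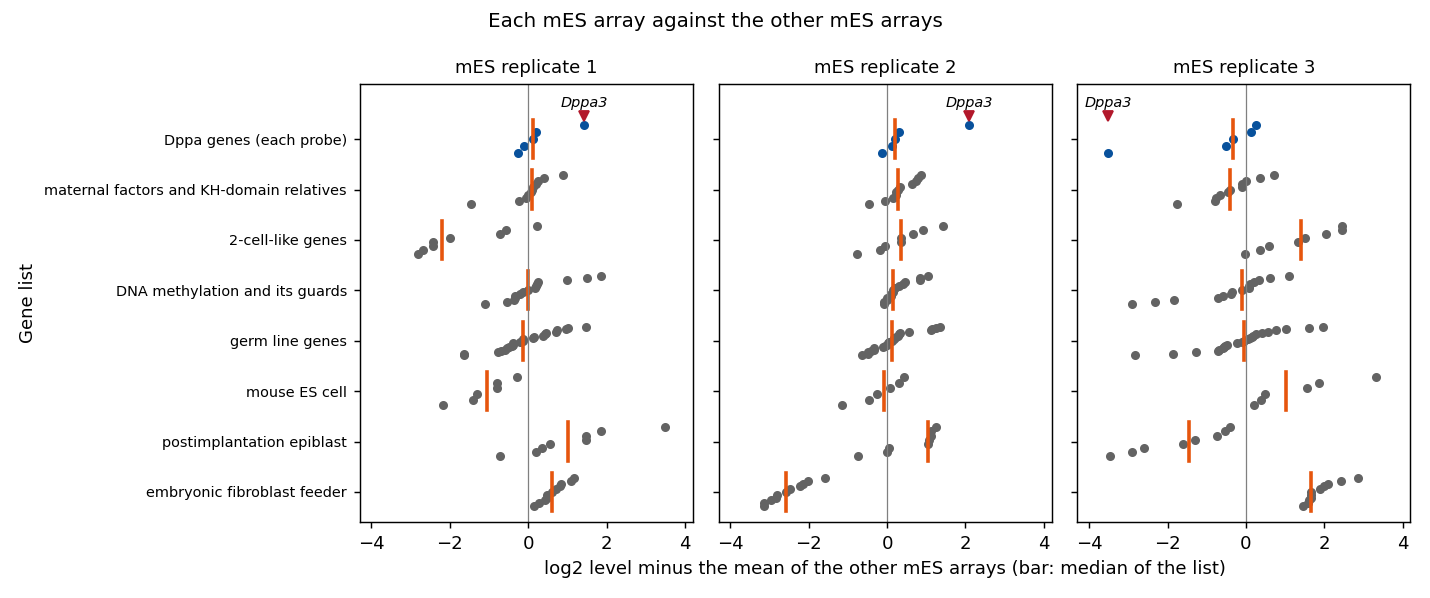
Log2 level on each mES array minus the mean of the other mES arrays, for each measured Dppa probe and each gene of 7 lists with a value on all 3 mES arrays. Orange bars are medians and the red triangle marks Dppa3. Dppa3 lies at 1.42, 2.10 and -3.52, while the other Dppa probes on replicate 3 lie between -0.51 and 0.25.

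Between the groups, 0 of 12 fibroblast genes were called lower and 0 higher by limma, and 0 had an unadjusted p under 0.05. Their median log2 fold change was -0.36. All 12 were well above background on every array. Their summed level (relative to the 75th percentile, linear) was 84.9, 16.5 and 102.6 on the mES arrays and 121.1, 73.3 and 10.6 on the EpiSC arrays. The sum for mES replicate 3 is over 11 markers, as 1 spot was left out. With the array lowest in these markers (the fibroblast-poor arrays, mES replicate 2 and EpiSC replicate 3) left out of each group, the log2 fold changes were -3.70 for Dppa2, -8.30 for Dppa3, -9.17 for Dppa4 and -10.20 for Dppa5a. All 4 remained past the threshold (limma, largest adjusted p = 0.0265). Of the markers of the cell types named by the labels, 4 of 7 mouse ES cell genes were lower and 6 of 8 postimplantation epiblast genes higher in EpiSC, with 0 called in the opposite direction. Of all 20689 genes tested, 2995 were lower and 2441 higher.

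Genes whose values moved most like each Dppa gene were found by the root-mean-square difference of log2 levels over the 6 arrays, each gene centred on its own mean. For Dppa2 the 3 nearest were Zfp750 at 0.16, Mylpf at 0.17 and Pramel4 at 0.19. The nearest to Dppa4 were AK082760 at 0.27, the transcript ENSMUST00000098674 at 0.42 and 1700061G19Rik at 0.48. For Dppa5a they were Pramel13 at 0.26, AK082760 at 0.33 and Stra8, a gene of entry into meiosis, at 0.41. The nearest to Dppa3 were farther away, Rhox5 at 0.97, Ube1y1 at 1.04 and Ldhc at 1.09. Rhox5, a homeobox gene of the reproductive system, read 7.02, 7.08 and 5.39 in mES and -0.88, -1.59 and -0.98 in EpiSC, and it was also lowest of the mES arrays on replicate 3. Among the Dppa genes, Dppa4 and Dppa5a were closest at 0.52, and Dppa2 and Dppa5a farthest at 3.25. Pramel4, Pramel13, AK082760, Stra8, Ube1y1 and Ldhc were above background on 0 EpiSC arrays, as was Dppa3, so their EpiSC values are readings at background and the order of such neighbours is not a measured one. Much of these distances comes from the size of the group difference, and they are a description over 6 arrays.

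Genes of the 2-cell embryo, some of which Dppa2 and Dppa4 help to switch on, were measured by 8 of 20 listed genes. Of these 6 (75%, against 14.5% of all genes) were lower in EpiSC and 0 higher (limma). Their median log2 fold change was -3.0, against -0.11 for all genes. Among probes above background on all 6 arrays, 4 of 6 were lower, against 2917 of 18095 genes. The count was 3 without mES replicate 2 or without any one of the EpiSC arrays, and 2 within position 4 or with both fibroblast-poor arrays left out. Zscan4c, which acts on telomeres and marks 2-cell-like cells in ES cultures, read 0.72, 3.00 and 2.43 in mES and -4.0, -3.72 and -3.84 in EpiSC. It fell by 5.90 ± 0.56 on the log2 scale (SE, n = 3 per group, limma, adjusted p = 0.00142). Usp17la, a deubiquitinase gene, fell by 4.31 ± 0.67 (adjusted p = 0.00682), with the call lost within position 4 (limma, adjusted p = 0.0578) and without the fibroblast-poor arrays (0.0716). Tcstv1 fell by 3.39 ± 0.82 (adjusted p = 0.0271). Tcstv1 kept its call in 2 of 6 fits with 1 array left out and lost it without mES replicate 2 or without any one of the EpiSC arrays, with adjusted p-values up to 0.0864. Its call was also lost within position 4 (limma, adjusted p = 0.0983), with the EpiSC-7 arrays averaged (0.0717) and without the fibroblast-poor arrays (0.1598). Not past the threshold were Tdpoz1 at -0.06 (adjusted p = 0.844), whose sign changed with the scaling, and Sp110 at -1.79 (adjusted p = 0.175). Against the other mES arrays, the median of these genes was -2.21, 0.36 and 1.42 on replicates 1 to 3, where Dppa2 was at 0.20, 0.31 and -0.51 and Dppa4 at 0.11, 0.21 and -0.33. The highest array for the list, replicate 3, was thus the lowest for both Dppa genes, by small amounts. Zscan4c, Usp17la and Tcstv1 belong to families of near-identical copies, so which copy a probe reads is uncertain.

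The genes of DNA methylation and of its protection had calls in both directions. Dppa2, Dppa3 and Dppa4 take part in that process, and whether they act on these genes was not tested. Of 15 measured genes of 16 listed, 6 (40%) were lower, 3 higher and 6 did not pass (limma). Of all 20689 genes, 14.5% were lower and 2441 higher. The median of the list was -0.38, against -0.11 for all genes. With 1 array left out, 4 or 5 genes of the list were lower and 1 or 2 higher. With both fibroblast-poor arrays left out, 2 were lower and 0 higher. Of the 6 lower genes, Dnmt1 and Trim28, named after their values were seen, lost their calls with any 1 array left out. Dnmt3l fell by 6.26 ± 0.64 on the log2 scale (SE, n = 3 per group, limma, adjusted p = 0.0018). Tet2, which oxidises 5-methylcytosine, fell by 2.80 ± 0.29 (adjusted p = 0.00178), and Zfp57, a zinc finger protein that keeps imprints methylated, fell by 2.00 ± 0.36 (adjusted p = 0.0111), with the call lost without the fibroblast-poor arrays (limma, adjusted p = 0.0919).

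In the other direction Tet3, the Tet enzyme of the egg, was higher by 2.07 ± 0.39 (adjusted p = 0.0122, limma), with the call lost within position 4 (adjusted p = 0.0882) and without the fibroblast-poor arrays (0.0807). Uhrf2 was higher by 0.85 ± 0.18 (adjusted p = 0.0185), and the DNA glycosylase gene Tdg by 0.71 ± 0.18 (adjusted p = 0.0322). The call of Tdg was lost with any 1 of the 6 arrays left out, with adjusted p-values up to 0.1002, and that of Uhrf2 without mES replicate 1 or without EpiSC replicate 1, up to 0.0642. Within position 4 both calls were lost too (limma, adjusted p = 0.1347 for Tdg and 0.0764 for Uhrf2), as they were without the fibroblast-poor arrays (0.1702 and 0.0822). That of Tdg was also lost with the EpiSC-7 arrays averaged (limma, adjusted p = 0.0677). Uhrf1, the protein that Dppa3 binds, did not pass, at -0.38 ± 0.16 (adjusted p = 0.122), and neither did Dnmt3a at -0.85 (adjusted p = 0.247) or Dnmt3b at 0.65 (adjusted p = 0.558). Dnmt3b turned to -0.32 without mES replicate 3, the array of low Dppa3. Zfp445 (0.27), Mbd3 (-0.04) and Ctcf (0.16) did not pass either, and the sign of Mbd3 changed with the scaling of the arrays.

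Maternal factors and KH-domain relatives, the surroundings of Dppa3 and Dppa5a in the egg, included 3 genes that fell. Of 11 measured genes of 16 listed, 3 (27.3%, against 14.5% of all genes) were lower, 0 higher and 8 did not pass (limma), with a median of -0.47. Among probes above background on all 6 arrays, 1 of 8 was lower, against 2917 of 18095 genes, so the list held no clear excess there. The 3 that fell include both listed KH-domain genes of the egg's subcortical maternal complex. Ooep read 3.12, 2.74 and 3.30 in mES and -6.21, -6.01 and -8.0 in EpiSC, and was at least 483-fold lower in EpiSC (limma, adjusted p = 0.000204). Khdc3 fell by 7.61 ± 0.42 on the log2 scale (SE, n = 3 per group, adjusted p = 0.000223), and Nlrp4f was at least 91.7-fold lower (adjusted p = 0.000178). Nlrp4f has close relatives, and which of them its probe reads is uncertain.

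The third measured KH-domain relative, Khdc1a, did not pass, at -0.43 (adjusted p = 0.283). Other members of the maternal complex were Tle6 at -0.47 (adjusted p = 0.433), Padi6 at -1.33 (adjusted p = 0.0863) and Nlrp2 at 0.25 (adjusted p = 0.249). The remaining oocyte genes that did not pass were Npm2 at -0.68 (adjusted p = 0.15), Zar1 at -0.42 (adjusted p = 0.178), Zbed3 at 0.08 and Mos at 0.12.

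Germ line genes, among which Dppa3 is a marker of the first germ cells, were measured by 23 of 25 listed genes. Of these, 18 (78.3%, against 14.5% of all genes) were lower, 0 higher and 5 not past the threshold (limma). The median log2 fold change of the 23 genes was -5.63, or -5.0 with 10 genes at the bound set by background. Those 10 entered the analysis through the mES arrays alone. So did Dazl, Sycp1 and Tdrd1, each above background on 1 EpiSC array, and all of these genes were called lower. Among probes above background on all 6 arrays, 5 of 10 were lower and 0 higher, against 2917 of 18095 genes lower. Stra8 was at least 693-fold lower (adjusted p = 1.69e-05), Mael, of the piRNA pathway, at least 420-fold (adjusted p = 0.00022) and Syce1, of the synaptonemal complex, at least 261-fold (adjusted p = 0.000136). All 3 were well above background on the 3 mES arrays and on 0 EpiSC arrays. Their bounds were taken from the processed signal only. Those that did not pass were Prdm1 at 0.02, Nanos3 at -0.35, Kit at -0.69 (adjusted p = 0.472), Ifitm3 at -0.40 (adjusted p = 0.572) and Ifitm1 at -0.67 (adjusted p = 0.0619). In the maternal, 2-cell-like and germ line lists 0 genes were higher at an unadjusted p under 0.05 too. The lists were chosen with earlier results of these arrays known, so their direction is a description.

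**Figure D4:**
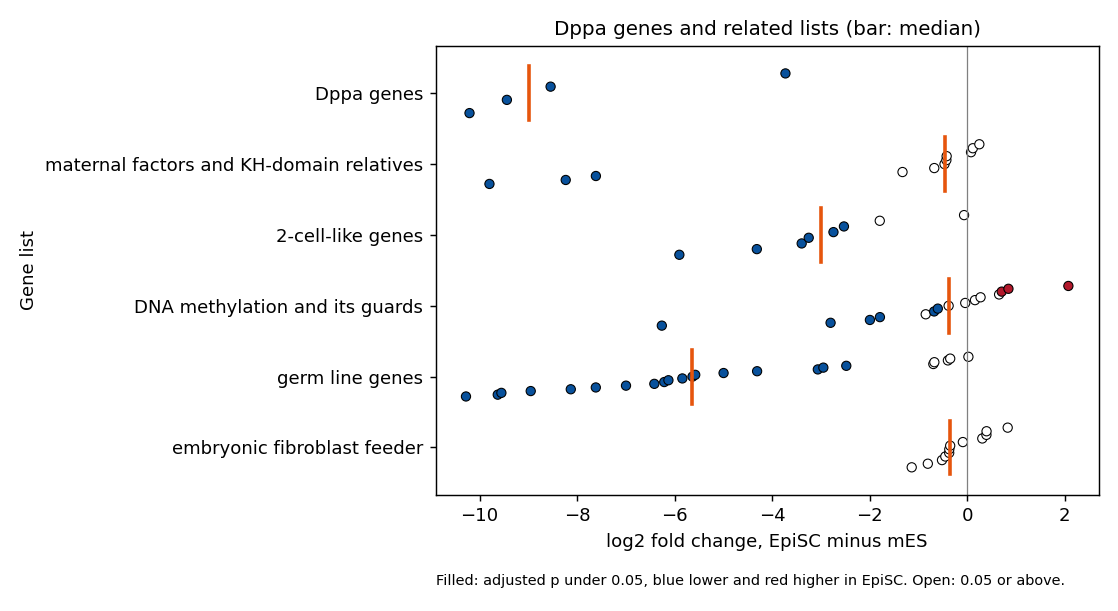
Log2 fold change (EpiSC minus mES) of each measured gene of the Dppa group, of 4 related lists and of fibroblast markers; orange bars are medians and filled points have an adjusted p under 0.05 in limma. The medians of the 2-cell-like and germ line genes are -3.0 and -5.63, and those of the maternal, DNA methylation and fibroblast lists lie between -0.36 and -0.47.

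The Dppa genes lie beside other genes that differed between the groups, and beside some that did not pass. Gene order was taken from the RefSeq table of GRCm38.p6, with 5 genes of any kind on each side. Of 12 measured neighbours that are not Dppa genes, 5 were lower in EpiSC (41.7%, against 14.5% of all genes) and 0 higher (limma), with a median of -0.75. Among probes above background on all 6 arrays, 3 of 8 were lower, against 2917 of 18095 genes. With 1 array left out, 3 or 4 were lower, and Havcr1 and Mto1 lost their calls in each such fit. With 5 protein-coding genes on each side, a choice made after the values were seen, 7 of 23 were lower and 0 higher, with a median of -0.61.

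Dppa4 and Dppa2 are direct neighbours. The nearest measured gene past Dppa2 was Morc1, a gene of transposon silencing in male germ cells, at a fitted -9.23 ± 0.36 (SE, n = 3 per group, limma, adjusted p = 7.5e-05), and 2 of the 3 EpiSC arrays had it above background. Dppa2 thus stood between genes with larger decreases, Dppa4 on one side and Morc1 on the other. Trat1 farther on was at -0.57 (adjusted p = 0.0772). Dppa5a is the direct neighbour of Ooep, its KH-domain relative, which was above background on 0 EpiSC arrays and at least 483-fold lower. Beyond Ooep, Cgas, a sensor of cytosolic DNA, was at -1.36 (adjusted p = 0.0594) and Mto1 fell by 0.62 ± 0.17 (adjusted p = 0.0389), with adjusted p-values up to 0.116 when an array was left out.

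Around Dppa3 the differences were smaller. The direct neighbour Gdf3, a growth factor of the TGF-beta family, was at -0.73 ± 0.24 (adjusted p = 0.0685, limma). Apobec1, an RNA-editing cytidine deaminase gene, fell by 1.82 ± 0.20 (adjusted p = 0.00225). Mfap5 was at -1.80 (adjusted p = 0.0773) and Nanog at -0.10 ± 0.49 (adjusted p = 0.89), and the sign of Nanog changed with quantile normalization. Near Dppa1, Timd2 was at -0.40 (adjusted p = 0.201) and Havcr1 fell by 0.77 (adjusted p = 0.0484), with adjusted p-values up to 0.137 when an array was left out.

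**Figure D5:**
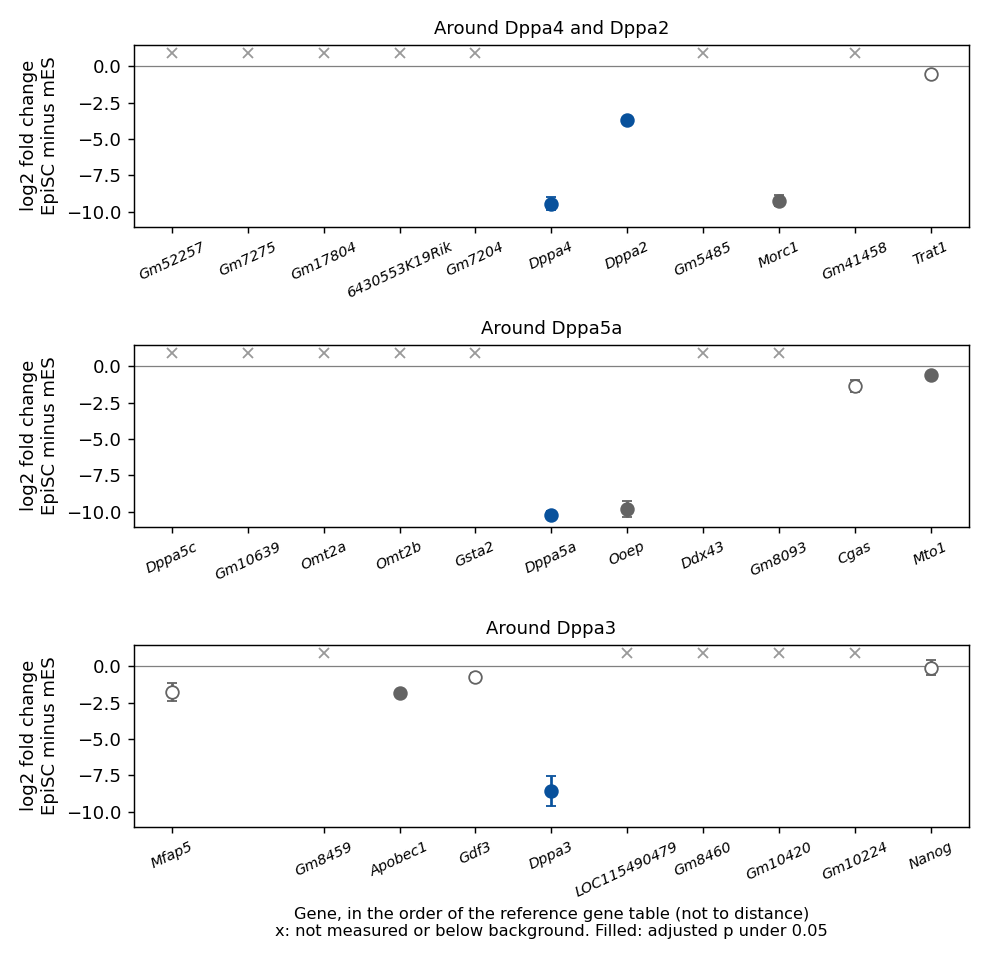
Log2 fold change (EpiSC minus mES, bars SE) of the genes on each side of Dppa4 and Dppa2, of Dppa5a and of Dppa3, in gene order and not to distance; crosses are genes with no measured value, 1 measured neighbour is not drawn, and filled points have an adjusted p under 0.05 in limma. Morc1 and Ooep lie beside Dppa2 and Dppa5a, at fitted values that rest on EpiSC readings near or at background, and the measured genes drawn around Dppa3 lie between -1.82 and -0.10.

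The decreases of the 4 genes did not rest on 1 array. With each array left out in turn the fitted log2 fold change ranged from -3.90 to -3.58 for Dppa2, from -9.72 to -7.84 for Dppa3, from -9.97 to -9.10 for Dppa4 and from -10.45 to -10.01 for Dppa5a. All stayed past the threshold in limma, and for Dppa3 and Dppa4 these values are differences against readings at or near background. With the arrays of line EpiSC-7 averaged into 1 sample the values were -3.80, -8.77, -9.61 and -10.30, in the same order (limma, largest adjusted p = 0.0122). With the slide as a random block they were -3.58, -7.87, -9.20 and -10.12, and with the position on the slide as a block they were as without it to 2 decimals. The fitted correlation within slides was -0.68, which lowers the errors of a comparison between slides, so calls gained in that fit carry no weight. Within position 4, the only position with more than 1 array per group, the values were -3.97, -10.17, -9.35 and -10.07 (limma, largest adjusted p = 0.00818).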

How the data were processed

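TRIzol-extracted total RNA was labelled with Cy3, per the labels' protocols, and read on 6 1-colour Agilent arrays (45018 spots). The scanner files deposited by the authors hold linear spot intensity values with the flags set by Agilent Feature Extraction 9.1.3.1, per the file headers. The deposited value table holds the same signal, rounded (largest difference 0.00716 log2 units). Its column medians were 78.9, 84.9, 68.7, 117, 80.25 and 82.95 for mES and then EpiSC replicates 1 to 3, and 0 of its columns were left unused. Array medians of the signal ran from 72.5 to 119.7, with 66.3% to 75.4% of probes above background. The number of arrays limits the precision.

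Control and outlier spots (12 to 24 per array) were left out, 0 spots were saturated, and spots of a probe were averaged. The log2 signal was scaled to each array's 75th percentile. Probes entered that were detected (well above background) on all 3 arrays of a group, with at most 1 missing value per group, and a gene was its entering probe with the highest mean. Of all probes, 22951 (55.7%) were named by accession through the RefSeq table of GRCm38.p6 and the others keep the file's name, which can be old. That table gave names and gene order only, and for the probes' own genome build the sources used here give none. The group comparison used limma 3.58.1 with R 4.3.3 (lmFit and eBayes, two-sided, no covariate, Benjamini-Hochberg over all 20689 genes, threshold 0.05), which was tested on simulated data. All adjusted p-values are limma's.

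The members and gene lists were chosen with earlier results of these data known. Named genes are all members, up to 3 genes per list and direction by size, list genes that did not pass, measured neighbours (1 of them is counted but not reported here) and the 3 nearest in pattern. Nanog, Dnmt3a, Dnmt3b, Dnmt3l and Rhox5 were given by array after their values were seen. Replicate numbers are accession order and imply no pairing. Alternatives were normexp (offset 50), quantile and median scaling, dim-probe filters, probes fitted singly, slide and position, a mean-variance trend, the value table, EpiSC-7 averaged and arrays left out.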

Additional observations from a re-analysis of the deposited data

How the results depend on the processing

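Each of the 4 Dppa genes kept its direction and its call in every alternative that tested it, 19 for Dppa2 and Dppa5a and 18 for Dppa3 and Dppa4. The values ranged from -3.97 to -3.43, from -10.45 to -9.80, from -10.17 to -5.03 and from -9.97 to -6.87, in that order. Restricted to probes above background on all 6 arrays, 2 Dppa genes and 19 genes of the related lists passed, since Dppa3 and Dppa4 were then not tested. Otherwise the related lists gave 25 to 42 called genes against 36, with 29 to 34 with 1 array left out. The Dppa4 minus Dppa2 difference was -3.45 with normexp and -6.17 to -5.44 with 1 array left out.

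Genes that had not passed changed sign in some settings, and the cause was not tested. With normexp Zbed3 was -0.11, Mos -0.22 and Mbd3 0.040. Quantile normalization gave Tdpoz1 0.063, Mbd3 0.017 and Nanog 0.021, and median scaling gave Tdpoz1 0.034 and Mbd3 0.058. With the slide as a random block Prdm1 was -0.29. At position 4 Tdpoz1 was 0.094, Dnmt3b -0.30, Prdm1 -0.071 and Nanog 0.46. With EpiSC-7 averaged Tdpoz1 was 0.020, and with both fibroblast-poor arrays left out, chosen after seeing the data, Tdpoz1 was 0.040 and Mbd3 0.098. With 1 array left out the values ran from -0.078 to 0.27 for Zbed3, from -0.23 to 0.38 for Mos, from -0.16 to 0.050 for Mbd3, from -0.23 to 0.10 for Tdpoz1, from -0.54 to 0.41 for Nanog, from -0.53 to 0.51 for Prdm1, from -0.32 to 1.28 for Dnmt3b and from -0.66 to 0.10 for Ifitm3.

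The count of all genes called moved by over 1.5 times from 2995 lower and 2441 higher in several fits: 6118 and 2594 with dim probes kept, 6800 and 4985 with the slide block, 1476 and 1210 at position 4, 718 and 830 with both fibroblast-poor arrays left out, 1894 and 1737 without mES replicate 1, 1638 and 1820 without mES replicate 2, 1827 and 1460 without EpiSC replicate 1, and 1566 and 1379 without EpiSC replicate 3. No paired analysis was possible because the labels give no replicate numbers that the groups share. Signal near background limits the size of the Dppa3 and Dppa4 decreases, not their direction in these settings.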
